A study of Mus musculus with 4 samples.

Results

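The major histone gene cluster of the mouse lies on chromosome 13 in a pair of gene blocks, and its members were the peaks of the 4 deposited ATAC-seq peak lists that overlapped chr13:21700000-22060000 (the first part, 360 kb) or chr13:23520000-23780000 (the second part, 260 kb) of mm10. This rule took 411 of 432906 peaks. The SOX17FNV libraries held 103 and 100 of them and the SOX2 libraries 107 and 101. Overlapping peaks of the 4 lists (1 bp or more in common) were joined, which left 120 cluster regions of 170898 in all. The 2 parts hold 54 histone genes in the RefSeq gene table, of which 52 are protein-coding: 6 for the linker histone H1, 12 for H2A, 14 for H2B, 9 for H3 and 11 for H4. The gene that the table names H4bc24 was counted with H2B because its older symbol is Hist1h2br.

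ATAC-seq cuts open DNA with a transposase and counts the cuts, so a peak marks accessible chromatin. The cells were 2TS22C, a mouse embryonic stem cell line whose endogenous Sox2 is silenced and which was treated with DOX in every library. A lentivirus supplied the SOX factor: SOX2 itself in 2 libraries, and in 2 others SOX17FNV, an engineered version of the endoderm factor SOX17. All cells grew in medium with 2i, serum and LIF, and each library started from 900000 cells. The titles call the 2 libraries of a group biological replicates without saying that they came from separately derived cultures, so the spread between them may be partly technical.

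Replication-dependent histone genes supply the histones that package newly made DNA. They are short, lack introns, and are transcribed mainly in S phase at histone locus bodies, where the coactivator NPAT gathers. H1 binds the linker between nucleosomes, H2A pairs with H2B, and H3 pairs with H4. Many H2A and H2B genes sit head to head and share the stretch between their starts. Known promoter elements are the TATA box and the CCAAT box, the octamer of H2B promoters, the AAACACA box of H1 promoters and the HINFP site of H4 promoters.

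The stretches between the starts of 2 divergent pairs are shown because these pairs had the highest cluster pileups at gene starts: H2ac8 and H2bc8 (chr13:23571221-23571399, called in all 4 libraries) and H2ac11 and H2bc11 (chr13:22042950-22043197, called in all 4). The highest summit of H2ac8 and H2bc8 lay between the starts only in SOX2 replicate 2 and otherwise inside a gene of the pair. That of H2ac11 and H2bc11 lay between the starts except in SOX17FNV replicate 2, where it was inside H2bc11. The H2bc23 and H2ac23 stretch (chr13:21810200-21810366) and the H2ac24 and H4bc24 stretch (chr13:21833476-21833742) are shown because no library had a peak at any of these 4 starts. All are read on the plus strand of GRCm38.p6, the assembly whose coordinates mm10 uses, from the RefSeq promoter table. Capitals mark the TATA box (TATAAA), the CCAAT box (CCAAT) and the octamer (ATTTGCAT) on either strand.
H2ac8-H2bc8: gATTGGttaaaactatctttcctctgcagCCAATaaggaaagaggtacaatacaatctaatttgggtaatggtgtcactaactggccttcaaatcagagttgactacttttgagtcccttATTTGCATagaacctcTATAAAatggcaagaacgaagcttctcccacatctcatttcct
H2ac11-H2bc11: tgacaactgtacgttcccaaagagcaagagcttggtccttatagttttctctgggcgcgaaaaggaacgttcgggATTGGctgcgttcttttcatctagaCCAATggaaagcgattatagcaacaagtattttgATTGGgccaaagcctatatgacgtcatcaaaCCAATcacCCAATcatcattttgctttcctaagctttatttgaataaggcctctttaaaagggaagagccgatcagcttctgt
H2bc23-H2ac23: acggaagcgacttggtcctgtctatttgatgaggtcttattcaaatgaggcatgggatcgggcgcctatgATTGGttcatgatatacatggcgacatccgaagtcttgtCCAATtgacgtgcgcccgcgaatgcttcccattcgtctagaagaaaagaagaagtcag
H2ac24-H4bc24: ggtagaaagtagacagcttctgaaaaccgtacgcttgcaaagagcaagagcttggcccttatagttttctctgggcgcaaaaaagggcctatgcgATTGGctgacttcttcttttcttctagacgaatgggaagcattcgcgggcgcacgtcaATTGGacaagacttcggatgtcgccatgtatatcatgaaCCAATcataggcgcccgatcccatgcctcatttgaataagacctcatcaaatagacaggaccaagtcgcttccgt

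The 120 bases before the start of 3 H1 genes show the elements of that class: H1f4 (chr13:23622559-23622678, minus strand), H1f5 (chr13:21780626-21780745, minus strand) and H1f6 (chr13:23695691-23695810, plus strand), the testis H1 gene that only 1 library called. These and the next set are written in the direction of the gene, and here capitals mark the H1 box (AAACACA), the CCAAT box (CCAAT) and the TATA box (TATAAA) on either strand.
H1f4: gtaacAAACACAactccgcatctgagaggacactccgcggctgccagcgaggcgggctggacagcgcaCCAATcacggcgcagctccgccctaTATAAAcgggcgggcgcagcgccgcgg
H1f5: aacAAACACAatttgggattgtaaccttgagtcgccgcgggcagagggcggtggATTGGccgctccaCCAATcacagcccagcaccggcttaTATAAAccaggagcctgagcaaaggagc
H1f6: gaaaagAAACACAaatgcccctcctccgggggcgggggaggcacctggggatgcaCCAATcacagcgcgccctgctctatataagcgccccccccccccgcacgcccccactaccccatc

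For H4, the 120 bases before the starts of H4c17 (chr13:21811626-21811745, plus strand) and H4c18 (chr13:21832198-21832317, minus strand) are shown because these stretches are copies of each other shifted by 1 base, yet only H4c18 had peaks. H4c12 (chr13:21750554-21750673, minus strand) is shown as a further called H4 gene of the first part. Capitals mark GGTCCG, the core of the HINFP site, and TATAAA, on either strand.
H4c17: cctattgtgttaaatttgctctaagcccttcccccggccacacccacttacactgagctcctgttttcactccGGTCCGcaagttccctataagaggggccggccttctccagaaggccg
H4c18: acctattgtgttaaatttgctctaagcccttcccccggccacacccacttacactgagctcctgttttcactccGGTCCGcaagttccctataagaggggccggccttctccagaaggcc
H4c12: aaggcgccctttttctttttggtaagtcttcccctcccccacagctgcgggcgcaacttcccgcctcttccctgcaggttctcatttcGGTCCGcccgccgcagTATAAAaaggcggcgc

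Motifs were counted on both strands of the 300 bases from 250 before to 50 after each start. The table holds 50 promoters for 49 of the 52 coding histone genes and 32851 promoters in all. CCAAT stood in 84% of the histone promoters (42 of 50) against 37.4% of all promoters, and in each H1, H2A, H2B and H3 promoter of the table but in only 3 of 11 H4 promoters. TATAAA stood in 58% (29 of 50) against 13.6% of all promoters. GGTCCG stood in 10 of 11 H4 promoters, all but that of H4c1, against 8.25% of all promoters, and in 1 of 14 H2B and 1 of 7 H3 promoters. AAACACA stood in 5 of 6 H1 promoters, all but that of H1f1, against 7.18% of all promoters, and in 1 of 12 H2A and 1 of 14 H2B promoters. The octamer ATTTGCAT stood in 5 of 14 H2B and 4 of 12 H2A promoters, against 1.74% of all promoters, and a divergent pair counts the same octamer for both genes. ACAAT, the core bound by SOX proteins and a motif added after the other values were seen, stood in 44% (22 of 50) against 31.0% of all promoters. ACAAT and CCAAT cannot cover the same CAAT, while the AAACACA of H1f5 overlaps an ACAAT.

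The files hold no read totals, so depth was judged from the pileup at peak summits, the number of fragments or tags over the base, which was recovered as a whole number for 100% of the summits. To compare libraries, the highest summit pileup was divided by the library's median over the 57783 regions called in all 4 libraries. The SOX17FNV medians were 33 and 24, and those of SOX2 35 and 28. The quotient is called relative pileup below, and counting error is larger in the libraries with the lower medians. In such bulk libraries, more cells with an open site and more opening per cell cannot be told apart. Embryonic stem cell markers were called near a start in all 4 libraries for 4 of 5 genes, Nanog, Sall4, Zfp42 and Esrrb, and Pou5f1 was called in the replicate 2 libraries only. Of the fibroblast markers Col1a1, Col1a2, Col3a1, Thy1 and Postn, 2 of 5 were called in all 4 libraries, Col1a2 with pileups of 14, 10, 20 and 16 and Thy1 with 24, 16, 29 and 31 (both SOX17FNV libraries first). Both SOX2 libraries were above both SOX17FNV libraries at these 2 genes in relative pileup, with log2 ratios of -0.44 and -0.46, and the part of other cells in the results was not tested. Col1a1 was called in SOX2 replicate 1 only, and Col3a1 and Postn had no peak.

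The cluster was dense in accessible regions and most of them recurred. The first part held 75 regions, or 208 per Mb, and the second 45, or 173 per Mb, while the rest of chromosome 13 held 62.8 per Mb. Peaks covered 18.7% of the first and 16.1% of the second part, and 3.48% of the rest of the chromosome. All 4 libraries called 75 of the 120 cluster regions (62.5%), against 33.8% of all regions. Single libraries called 15.8% of the cluster regions, against 35.2% of all regions.

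Regions over histone and tRNA genes were called in all 4 libraries more often than the other cluster regions. Of 42 regions over a histone gene, all 4 libraries called 35 (83.3%), against 33.8% of all regions. These 35 had a median width of 1550 bp against 834 bp over the genome. Overlap was with the annotated span, which is long for H2bc6 (23583670 to 23621124), H2bc22 (21787483 to 21801561) and H2bc4 (23684199 to 23692480). Of 29 regions over tRNA genes but no histone gene, 20 were called in all 4 (69.0%), with a median width of 950 bp. Of the 49 remaining regions, most of them between genes but some over genes such as Zfp184, Hfe and Trim38, 20 were called in all 4 (40.8%), with a median width of 820 bp. The map of called regions shows the dots bunched over the gene marks, with empty stretches between them. The longest stretch with no region in any library was 31.7 kb, from position 23630868 to 23662568, between the H1f4 gene and H2ac6.

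**Figure D1:**
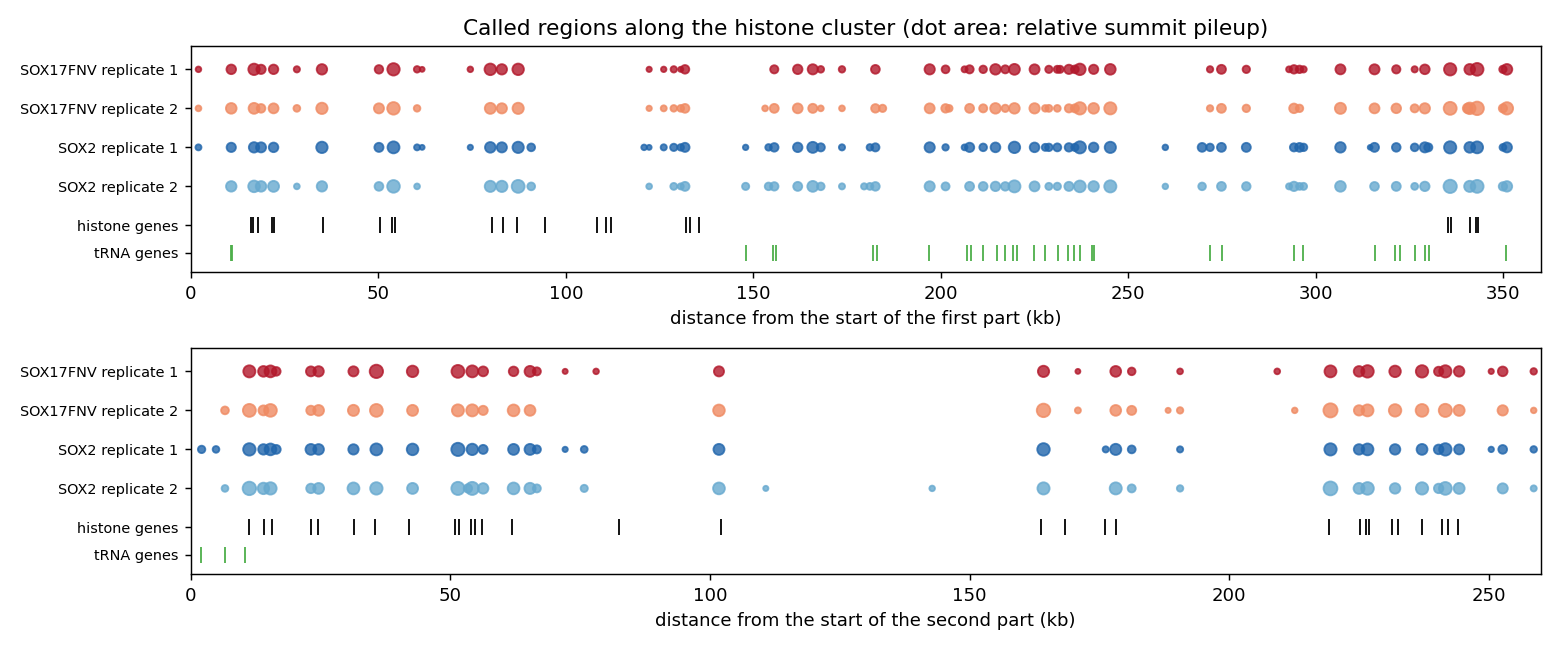
Regions called in each library along the 2 parts of the cluster, by distance in kb from the start of each part, with dot area proportional to relative summit pileup and ticks at histone and tRNA genes. Of the 120 regions, 75 appear in all 4 libraries, and the large dots stand mostly over histone genes.

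The linker histone genes were open in every library except for H1f6. Of the 6 H1 genes, 5 had a peak within 500 bp of the start in all 4 libraries, where the share over all protein-coding genes was 61.3%. Within that distance H1f3 was the strongest, with summit pileups of 66 and 67 in SOX17FNV and 86 and 74 in SOX2. Relative to the library medians these came to 2.40 ± 0.560 and 2.55 ± 0.131 (SD, n = 2 each), so the groups overlapped. Over whole regions the order differed, since summits farther into H1f2 reached 81, 82, 90 and 92, against 101, 68, 86 and 74 in the region over H1f3. H1f4 was the weakest of the 5, with 51 and 48 in SOX17FNV and 73 and 56 in SOX2, or 1.77 ± 0.321 and 2.04 ± 0.0606 relative to the medians (SD, n = 2 each). H1f2 had 71, 57, 81 and 81, H1f5 had 60, 49, 65 and 60, and H1f1 had 60, 50, 59 and 58, each with the SOX17FNV libraries first. H1f2 was above H1f5 in each of the 4 libraries, while H1f3 and H1f2, and likewise H1f5, H1f1 and H1f4, stood within the spread of their libraries. H1f6 encodes the H1 variant of testis germ cells and had a peak in SOX2 replicate 1 only, with a pileup of 23.

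H2A and H2B starts had the highest values among the histone starts of the cluster. In all 4 libraries, 10 of 12 H2A and 12 of 14 H2B genes were called at the start, against 61.3% of all protein-coding genes. The strongest of both classes were H2ac8 and H2bc8, which share a summit, with 94 and 60 in SOX17FNV and 105 and 83 in SOX2. Their relative pileup was 2.67 ± 0.246 and 2.98 ± 0.0253 (SD, n = 2 each). H2ac11 and H2bc11 followed with 92, 75, 85 and 80, and H2ac12 and H2bc12 with 86, 69, 90 and 85. These 3 pairs lay within the spread of their libraries.

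The weakest called H2A gene was H2ac4, with 75 and 47 in SOX17FNV and 58 and 52 in SOX2. The weakest called H2B gene was H2bc9, with 56, 36, 71 and 43 in the same order. Of the 9 divergent H2A and H2B pairs, with 163 to 267 bases between the starts, 7 were called at both starts in all 4 libraries. The median relative pileup of these 7 was 2.64 (2.11 to 2.82), and that of the 30 other starts was 2.01 (1.36 to 2.78), so the ranges overlapped. Over the 28 combinations of pair and library, the highest summit lay between the starts in 9, inside the H2A gene in 11 and inside the H2B gene in 8. Within a pair this place differed between libraries, in some cases by only a few bases across a start. The top summit of H2ac22 and H2bc22 lay 238 bases from the H2ac22 start in SOX17FNV replicate 2 and 242 in SOX2 replicate 2, with 239 bases between the starts. That of H2bc7 and H2ac7 stayed 150 to 239 bases from the H2bc7 start.

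All 9 H3 genes were called in all 4 libraries, against 61.3% of all protein-coding genes, the only class without an exception. H3c1, whose start is not in the promoter table, was the strongest near a gene end, with 85 and 71 in SOX17FNV and 93 and 79 in SOX2. H3c8 followed with 80, 67, 83 and 73. H3c4 was the weakest, with 55, 35, 49 and 53. The SOX17FNV and SOX2 libraries overlapped at each H3 start with a value in all 4 libraries.

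For H4, 10 of 11 genes were called in all 4 libraries, against the same 61.3%. H4c8 was the strongest, with 83 and 69 in SOX17FNV and 93 and 87 in SOX2, or 2.70 ± 0.254 and 2.88 ± 0.318 relative to the medians (SD, n = 2 each). H4c18 was the weakest of the whole cluster, with 42, 32, 50 and 39, and H4c12 was next with 41, 42, 50 and 37. Their relative pileups of 1.36 and 1.42 were nevertheless above the library medians.

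Taking the classes together, 46 of the 52 coding histone genes (88.5%) had a peak within 500 bp of the start in all 4 libraries, against 61.3% of all 21887 protein-coding genes. With only the genes whose start the promoter table gives, it was 43 of 49 (87.8%) against 61.8%. The median relative pileup over the starts with a summit in all 4 libraries was 2.56 for H2A, 2.52 for H2B, 2.05 for H4, 1.98 for H3 and 1.96 for H1. Over all such starts of histone genes it was 2.13, from 1.36 to 2.82, and over all protein-coding genes with a start in the promoter table it was 1.59. H2A and H2B genes of a pair share summits, so their medians are not separate measurements. By library, the median over the 48 histone starts was 2.17 and 2.19 for SOX17FNV and 2.11 and 2.41 for SOX2, or 2.18 ± 0.0147 and 2.26 ± 0.210 (SD, n = 2 each). SOX2 replicate 1 was the lowest and SOX2 replicate 2 the highest, so the groups overlapped.

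**Figure D2:**
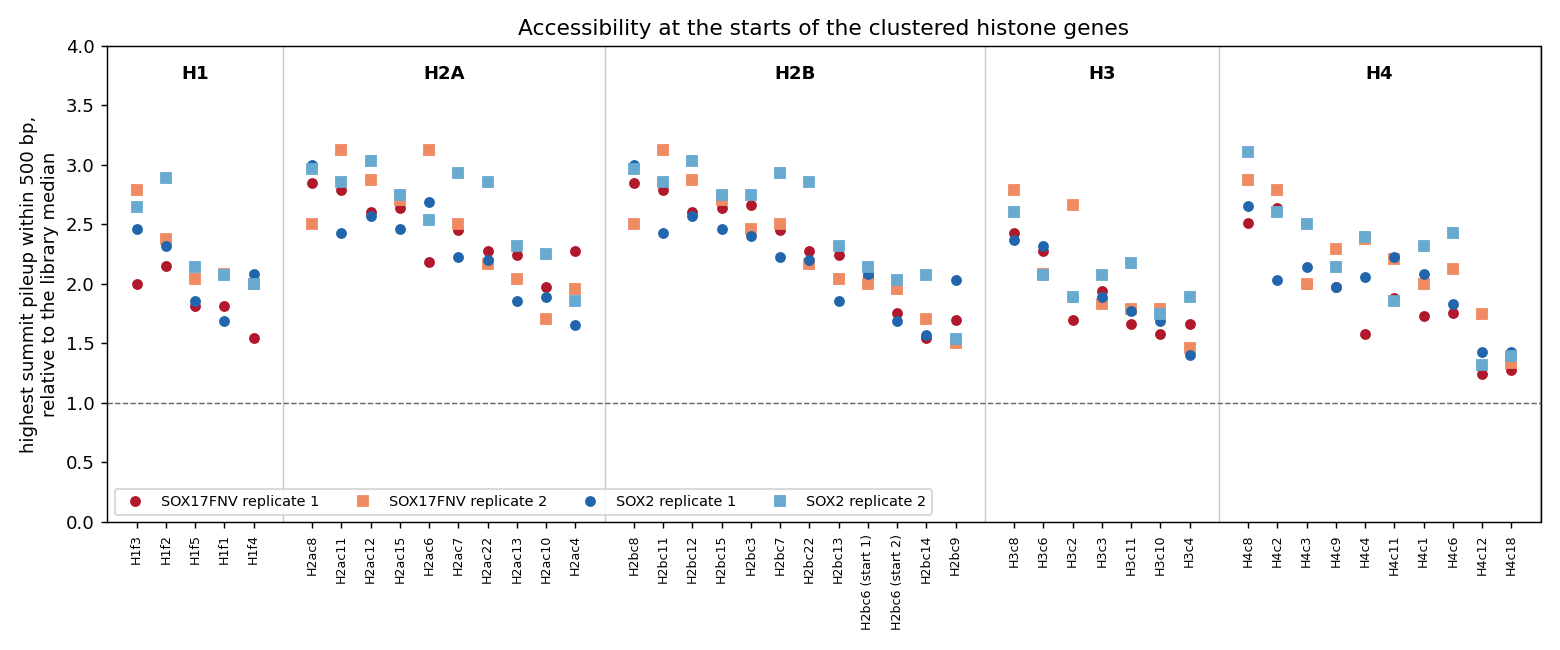
Relative pileup of the highest summit within 500 bp of each start of a coding histone gene that the promoter table holds and all 4 libraries called, by class, with 1 point per library and a dashed line at the library median. Values run from about the H4c18 level of 1.36 to the H2ac8 and H2bc8 level of 2.82 as means over the libraries, and the colours of the 2 groups mix at most genes.

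At the starts of 5 histone genes there was no peak in any library: H2bc23, H2ac23, H4c17, H2ac24 and H4bc24. All lie in the first part, in 2 stretches without any region, one of 29.8 kb (21790918 to 21820687) and one of 15.5 kb (21832273 to 21847777). Between these stretches H4c18 was called, with a region from 21831324 to 21832272 that reached 873 bases into and past the gene but only 75 bases upstream of its start. The promoters of these genes repeat each other. The 300 promoter bases of H2bc23 and H4bc24 were identical. The stretches printed above show this for the 167 bases before these starts, when one is read on the opposite strand.

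Words of 50 bases that occur elsewhere in the promoter table made up 100% of the H2bc23 and H4bc24 promoters, 95% of H4c17, 89% of H2ac23 and 77.7% of H2ac24. Among the called genes, this share was 95% for H4c18, 42.3% for H4c11 and H4c12, and 0 for the others in the table. Over all protein-coding promoters, 436 had the same 300 bases as another, and 10.1% of those were called in all 4 libraries while 87.8% were called in none. Of the 20827 promoters with unique bases, 60.7% were called in all 4 and 30.2% in none. How reads that fit several places were handled is not given in the sources used here, and the part of repeated sequence in these 5 absent peaks was not tested.

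The peaks over histone genes were high and stood on a high local background. The 35 regions over histone genes called in all 4 libraries had median summit pileups of 72 and 53 in SOX17FNV and 73 and 67 in SOX2, against 33, 24, 35 and 28 over all regions. The local background that the peak caller set against them was 18.9, 13.1, 19.9 and 15.5, against 6.27, 4.84, 6.79 and 6.88. The deposited fold enrichment, the ratio of the 2, did not stand out as the pileup did: 3.90, 4.49, 3.43 and 4.19 at histone genes and 4.48, 4.17, 4.30 and 3.49 over all regions. It was lower at histone genes in both replicate 1 libraries and higher in both replicate 2 libraries. By pileup these regions ranked at a median percentile of 96.8 of their lists, and by fold at 66.1, against 67.5 and 65.9 for all regions called in all 4 libraries. Regions over tRNA genes stood between, with a local background of 10.1, 7.49, 12.4 and 9.36.

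**Figure D3:**
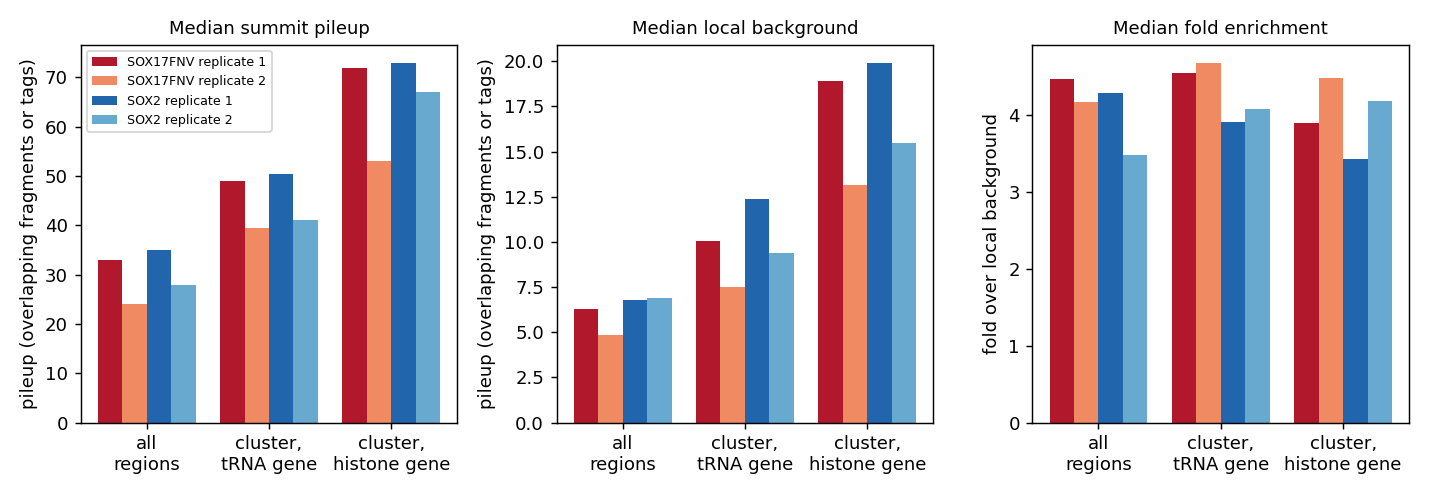
Median summit pileup, local background and deposited fold enrichment in each library, for all regions called in all 4 libraries, for the 20 such cluster regions over tRNA genes and for the 35 over histone genes. Pileup and background climb toward the histone genes in every library, while the fold at histone genes is below that of all regions in the replicate 1 libraries and above it in the replicate 2 libraries.

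Histone regions also held several summits each, 3.37 and 3.26 on average in SOX17FNV and 3.66 and 3.51 in SOX2, against 1.62, 1.61, 1.72 and 1.77 over all regions. Where the peaks lay around the start differed by class. At the 5 called H1 starts, peaks covered 100% of the first 1000 bases of the gene side in each library, but 26.6%, 32.7%, 43.1% and 43.0% of the 250 bases before the start. Over all protein-coding genes the upstream bases were covered more (87.5%, 82.4%, 87.7% and 82.7%) than bases 500 to 1000 (30.5%, 24.2%, 34.3% and 26.9%). The merged H1 regions reached from 1416 to 1750 bases past the start and 80 to 279 bases before it. The top summit of an H1 gene lay downstream of the start in all 21 cases over genes and libraries, at a median of 154 bp.

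H4 top summits also lay mostly downstream, at a median of 91.5 bp and with 10% of 40 upstream. The cover around H4 starts was unlike that of H1. Peaks covered 67.4%, 66.9%, 70.8% and 65.8% of the 250 bases before the start and 48.6%, 46.4%, 63.3% and 50% of bases 500 to 1000. H3 summits lay at a median of 22 bp downstream, H2A at 3.5 bp upstream (-3.5) and H2B at 93.5 bp upstream (-93.5), where a summit in or near the partner H2A gene counts as upstream. Over all protein-coding genes the median was 22 bp upstream (-22), and 55.1% of top summits lay upstream against 35.0% of 177 for the histone genes. By library the histone median ran from 22.5 to 40 bp downstream and the median of all genes from 31 (-31) to 13 (-13) bp upstream. These 2 ranges of medians did not overlap, but the libraries measured the same starts. Single starts did overlap, with quartiles of -54 and 98 bp for histone genes and -139 and 96 bp for all genes. The coding sequences of a histone class are much alike, and how the authors placed reads that fit several genes is not known, so values inside the genes are uncertain to that extent.

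**Figure D4:**
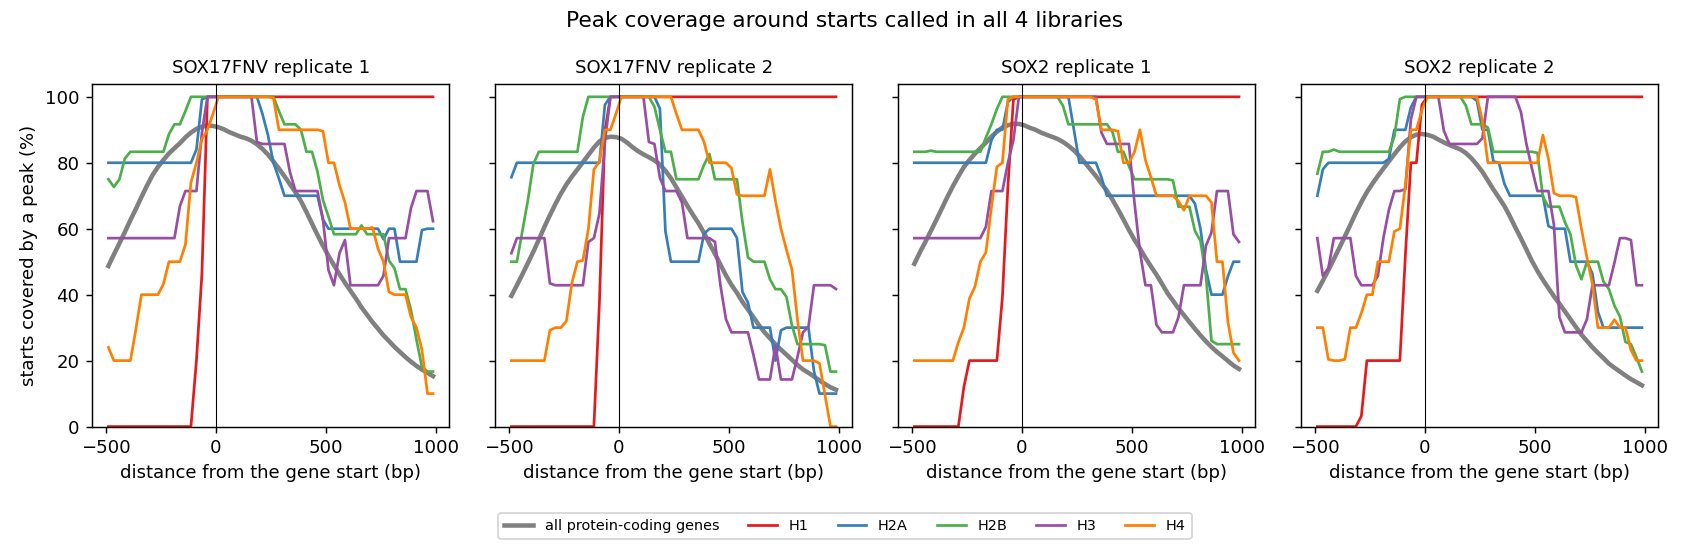
Share of gene starts covered by a peak at each distance from the start in bp (negative is upstream), for starts called in all 4 libraries, 1 panel per library, with 1 coloured line per histone class and a grey line for all protein-coding genes. The H1 line, over 5 starts, rises just before the start and stays at 100% to 1000 bp, while the grey line falls on both sides.

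Cluster regions called in 1 group only were too few to set apart from the background. Of the 120 regions, 1 was called in both SOX17FNV and neither SOX2 library, where the background over all regions was 3.06%, and 7 were called in both SOX2 and neither SOX17FNV library, where it was 4.09%. The SOX17FNV region lay inside the H2bc4 gene (23690710 to 23691051), with pileups of 14 and 15. The SOX2 regions had pileups of 15 to 47, and their mean pileup percentile in the SOX2 lists ran from 22.2 to 76.4. One lay in the annotated span of H2bc22 (21790634 to 21790917, 36 and 29), and one lay in H2bc6 and the overlapping Gm33387 (23595353 to 23596193, 28 and 25). One overlapped the tRNA gene n-TLtaa2 (21847778 to 21848171, 18 and 25), and one lay in Zfp184 (21959512 to 21960337, 19 and 15).

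The other 3 SOX2 regions overlapped no gene: 21853928 to 21854252 (26 and 28), 21880885 to 21881349 (26 and 23), and 21968953 to 21970508 (47 and 28). The last was the highest of the 7, with 4 summits in either SOX2 library. These counts moved with the threshold and with single libraries. With a -log10 q of at least 5 only 1 SOX2 region was left, and leaving out any 1 library gave 3 to 7 SOX17FNV and 7 to 13 SOX2 regions, since 1 library then stood for its group, both for a call and for its absence.

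Over the 75 cluster regions called in all 4 libraries, the median log2 ratio of SOX17FNV over SOX2 relative pileup was -0.0089, and over all such regions it was 0.04. The middle 90% of cluster regions ran from -0.30 to 0.31, against -0.53 to 0.53 over all regions. Among regions of a mean pileup percentile of at least 90, the cluster ran from -0.21 to 0.27 (45 regions) and the genome from -0.23 to 0.39 (9092 regions). The medians of these strong regions were -0.0066 for the cluster and 0.092 for the genome. Both SOX17FNV libraries were above both SOX2 libraries at 10 of 75 cluster regions, with a background of 24.1%. They were below at 12 of 75, with a background of 18.4%. At a mean pileup percentile of at least 90, the counts were 6 and 5 of 45 cluster regions, against backgrounds of 31.2% and 9.07%. The split over the 75 regions turned on the scaling. With the deposited fold it became 17 and 5, against backgrounds of 32.2% and 6.48%. With the pileup over the genome-wide background it became 18 and 0, against 31.5% and 4.18%. These scalings also moved the median over all regions to 0.15 and 0.24. Without matching by strength, the cluster median was 0.05 below that of all regions on the log2 scale with the relative pileup. With the fold it was 0.07 below. The genome-wide background adds the same amount to every log2 ratio, so it cannot change this distance.

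**Figure D5:**
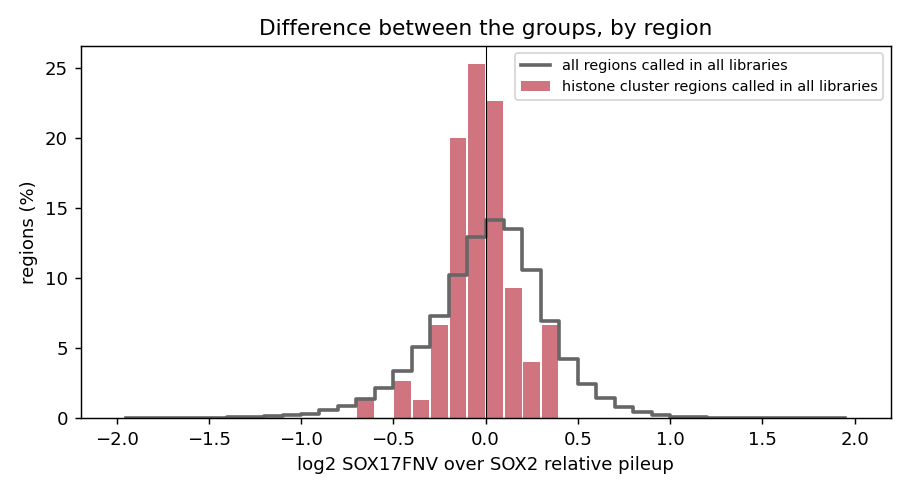
Distribution of the log2 ratio of SOX17FNV over SOX2 relative pileup for the 75 cluster regions called in all 4 libraries (bars) and all 57783 such regions (line), as percent of regions in bins of 0.1. The bars centre on -0.0089 and are narrower than the line.

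At most histone starts the groups overlapped. Of 48 histone starts with a value in all 4 libraries, both SOX17FNV libraries were higher at 2, H2ac4 and H4c2, against a background of 24.7%. Both SOX2 libraries were higher at 6, against a background of 13.6%: H2ac8 and H2bc8 with their shared summit, H2bc6, H4c1, H4c3 and H4c18. With the genome-wide background as the scale these counts turned to 8 and 0, against backgrounds of 35.8% and 1.68%. H4c2 had 87 and 67 in SOX17FNV and 71 and 73 in SOX2, a log2 ratio of 0.24. H4c1 had 57 and 48 against 73 and 65, a log2 ratio of -0.24, and H4c3 had 66 and 48 against 75 and 70, a log2 ratio of -0.21.

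The largest difference in favour of SOX17FNV over a histone gene was the region across H2ac4 and H3c2 (23751015 to 23752952). Its pileups were 75 and 64 in SOX17FNV and 66 and 53 in SOX2, and its relative pileup 2.47 ± 0.279 and 1.89 ± 0.00506 (SD, n = 2 each), a log2 ratio of 0.38. The next 3 were the region over the tRNA gene n-TVaac3 (22015387 to 22016058, 58, 41, 49 and 37, log2 ratio 0.35), the region over n-TSgct5 (22050448 to 22051644, 65, 63, 61 and 53, log2 ratio 0.32) and a region between genes (21759735 to 21760928, 24, 18, 22 and 16, log2 ratio 0.30). All 4 kept their sign with the deposited fold, while the genome-wide background raises every ratio and so could not turn them. The n-TSgct5 ratio hung on the SOX17FNV libraries, being 0.12 without replicate 2 and 0.53 without replicate 1.

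The largest differences in favour of SOX2 lay outside histone genes. The region from 21867604 to 21868434 had 25 and 14 in SOX17FNV and 40 and 28 in SOX2, a log2 ratio of -0.69, or 0.670 ± 0.123 against 1.07 ± 0.101 in relative pileup (SD, n = 2 each). The region at the start of Pom121l2 (21980845 to 21982209) had 31, 23, 49 and 35, a log2 ratio of -0.48. The region 283 bases from H3c10 (21718398 to 21719022) had 49, 31, 61 and 54, a log2 ratio of -0.40. The region from 21865103 to 21866664 had 59, 34, 73 and 57, a log2 ratio of -0.37 that turned to 0.06 with the deposited fold, while the other 3 stayed negative under the fold and the genome-wide background. With the deposited fold, the first of these regions came to -0.19 and that of Pom121l2 to -0.090. The 8 regions were taken from those whose groups did not overlap. That choice alone fixes the two-sided exact permutation p over the 4 libraries at 0.333, the smallest that 2 against 2 allows, so it is no evidence of a difference.

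Regions were ranked by their pileup percentile in each list, averaged over the 4 libraries. The strongest regions of the first part were those over H2ac11 and H2bc11, over H2ac12 and H2bc12, and over H2ac15 and H2bc15 (21753088 to 21755004, 87, 65, 86 and 77). Those of the second part lay over H1f2 (23738528 to 23740554, 81, 82, 90 and 92), over H4c1 and H3c1 (23760801 to 23762534, 85, 71, 93 and 79) and over H4c8 (23530688 to 23531837, 83, 69, 93 and 87). The groups overlapped at each of these 6 in relative pileup. The region over H2ac8 and H2bc8, with the highest pileups at gene starts, came below them at a mean percentile of 99.4, against 99.7 for each of the 3 of the second part. The weakest regions called in all 4 libraries overlapped no histone gene. They lay at 21821820 to 21822651 (16, 12, 15 and 16), 21830341 to 21830974 (15, 19, 26 and 18) and 21872855 to 21874493 (24, 14, 23 and 18) in the first part. In the second part they lay over Hfe, an iron-sensing gene (23710215 to 23710918, 19, 17, 23 and 20), over Trim38 (23778168 to 23779213, 24, 13, 26 and 18) and at 23701006 to 23701484 (33, 34, 37 and 31).

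The cluster shares its ground with tRNA genes, 34 in the first part and 3 in the second. Peaks of all 4 libraries overlapped 27 of the 37 (73.0%), against 58.1% of 408 tRNA genes over the genome, and only n-TMcat9 was overlapped in none. The median relative pileup of the overlapped genes was 1.37, against 1.62 for all tRNA genes and 2.13 for the histone starts. The strongest was the serine tRNA gene n-TSaga1, with 75 and 63 in SOX17FNV and 89 and 66 in SOX2. Of the 6 other coding genes in the 2 parts, Zfp184 was called at the start in all 4 libraries with 65, 61, 76 and 71, and so were Pom121l2 and Hfe. Olfr1359, Prss16 and Trim38 were not called at the start in any library.

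Genes that run the histone programme lie on other chromosomes. Of 16 listed regulators and processing factors, 15 were looked up, since Sympk was misspelt in the list and left out, and all 15 were called in all 4 libraries, against 61.3% of all protein-coding genes. Npat, which encodes the coactivator, had 75 and 64 in SOX17FNV and 78 and 70 in SOX2. Slbp, whose product binds the stem-loop at the end of histone mRNAs, had 88, 63, 95 and 73, and Casp8ap2, whose product is FLASH, had 84, 63, 89 and 73. The groups overlapped at these 3 genes. Hinfp, whose product binds H4 promoters, had 77 and 73 against 80 and 52, a log2 ratio of 0.37 with both SOX17FNV libraries higher in relative pileup. Over the 18 starts or gene ends of the list, both SOX17FNV libraries were higher at 4 and both SOX2 libraries at 2. The backgrounds of 24.7% and 13.6% are over starts in the promoter table only. Zfp473 entered the 18 more than once with the same pileups. E2f4, with no start in that table, entered at both gene ends, with log2 ratios of 0.47 (SOX17FNV higher) and -0.14 (groups overlapping).

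Replacement histones, which are also made outside S phase, were called in all 4 libraries for 10 of 10 genes, against the 61.3% of all coding genes. Their median relative pileup was 1.59, the same as over all protein-coding genes with a start in the promoter table. Replication-dependent histone genes on other chromosomes were called in all 4 libraries for 11 of 13 (84.6%), against the same 61.3%, with a median of 2.16, which is close to the 2.13 of the cluster. H2ac19 was called in SOX17FNV replicate 1 only and H3c14 in none. H4f16 was the strongest of the 11, with 76 and 63 in SOX17FNV and 88 and 82 in SOX2.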

How the data were processed

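ATAC-seq peak lists of 4 libraries were used, 2 per group. The submitters' processing notes name Bowtie2, SAMtools, MACS2 and mm10. For their versions and settings, for read filters and for any transposase shift, the sources used here give nothing. Peaks were called per library, per the peak names in the files. For each summit the authors deposited a fold enrichment (the ratio of pileup to local background), the −log10 of p and q, and a score that is 10 times the −log10 q rounded down for nearly all lines. The lowest deposited −log10 q was 1.30 in every list.

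The pileup was solved from the deposited fold and −log10 p as MACS2 defines them, and a whole number matched within 0.001 for 100% of summits. The joining of crowded peaks, as in the cluster, was not tested except by a stricter overlap, which gave 122 cluster regions against 120. Peaks with 1 bp or more in common were joined into regions, and a library called a region with at least 1 peak in it. Gene starts came from the RefSeq promoter table (GRCm38.p6). For genes without an entry, among them 3 coding histone genes and the pseudogenes, both gene ends were tried. A start was called when a peak lay within 500 bp.

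Members and lists were chosen with earlier results of these data known. Genes and regions given in full were the strongest and weakest of each class and part, the regions called in 1 group only, the 4 largest differences in either direction without overlap, and the starts with no peak. Percent backgrounds are over all regions or genes. Single regions were tested by exact permutation over libraries, and no other test was run. Alternatives were stricter q, lists of equal length, a stricter overlap, other scalings, other distances, each library left out and a replicate block. Depth is unknown beyond the pileups. Python 3.11.15, numpy 2.4.6, pandas 2.3.3, scipy 1.17.1 and matplotlib 3.10.9 were used.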

Additional observations from a re-analysis of the deposited data

How the results depend on the processing

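With a -log10 q of at least 10, the cluster regions called in all 4 libraries fell to 41 of 61, the SOX17FNV-only regions to 0 and the SOX2-only regions to 1, and with a -log10 q of at least 5 the SOX2-only regions fell to 1. Leaving out each library in turn gave 76 to 79 regions called in all, 3 to 7 SOX17FNV-only regions and 7 to 13 SOX2-only regions. Those of SOX17FNV were 7 and 4 without SOX17FNV replicates 1 and 2, and 5 and 3 without SOX2 replicates 1 and 2. Those of SOX2 were 10 and 7, and 12 and 13, in the same order. The median log2 ratio was 0.079 with the deposited fold and 0.19 with the genome-wide background, and it ran from -0.149 (without SOX2 replicate 1) to 0.022 (without SOX17FNV replicate 1) as each library was left out. With the replicate block it was -0.022. Deviations of libraries with the same number correlated at 0.233 over all regions and at 0.102 over the cluster regions. With 2 libraries per group the values for both numbers are equal by construction, but their size and sign are not fixed. They do not show that samples were paired, and a shared effect of replicate number was not tested. Histone genes called at the start numbered 46 when any library was left out and at 250 or 1000 bp, 45 with a -log10 q of at least 5 and 38 with at least 10. The 20 regions given in full that all libraries called were each put under 7 alternatives. Of the 140 values, 120 stayed within the spread between replicates, and 20 moved further. The replicate block returns the main value of a region by construction, and leaving out 1 library cannot move it beyond that spread. Only the deposited fold and the genome-wide background, with 20 values each, could do so, so the 120 are no measure of stability. The sign changed in 30 of the 140 values. Of these, 29 fell on 11 of the 12 regions whose groups overlapped, where the log2 ratios lay between -0.20 and 0.14. The other was the region from 21865103 to 21866664, which had 0.063 with the deposited fold. The cause was not tested. Peak lists without read totals limit what a missing peak shows: accessibility under the caller's threshold was not detectable here.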
